A study of Mus musculus with 7 samples.

Results

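Of 12655 regions of the mouse genome where JUNB was mapped in reprogramming fibroblasts, 2693 (21.3%) lay outside every protein-coding gene and more than 10 kb, but no more than 100 kb, from the nearest gene end. These distal intergenic regions are the subject here. They were chosen by position alone: peaks from the 4 JUNB libraries were merged into a region wherever they shared 1 bp or more, and the median of the libraries' summits gave its position. Protein-coding gene bodies came from the RefSeq table of GRCm38.p6, the assembly also called mm10, with 21900 genes. A further 4110 regions lay inside a gene and over 10 kb from its ends (deep gene body), 1528 lay within 1 kb of a gene end, 3268 lay 1 to 10 kb from a gene end inside or outside a gene, and 1024 lay outside genes and beyond 100 kb.

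The cells were iMGT-Myh6-eGFP-MEF, a mouse embryonic fibroblast line. Doxycycline switches on MGT (Mef2c, Gata4 and Tbx5), a set of cardiac transcription factors, and the Myh6-eGFP transgene marks cells that start to use a heart muscle promoter. Every group carried both transgenes, received doxycycline and was collected at day 1 after MGT induction; no uninduced group was analysed here. By their titles, 2 libraries came from cells given a control siRNA (siControl) and 2 from cells given an siRNA for Chst7 (siChst7), which encodes a sulfotransferase of the chondroitin sulfate pathway. The treatment text of the labels instead lists siJunb and siH1f0 beside siControl, so the target of the second siRNA rests on titles and treatment tags. Peak lists cannot show the level of Chst7 or of Junb. Titles number the libraries as biological replicates without stating separate cultures, and p-values therefore measure only the spread between these libraries, which may be technical. Depth is given only as a stated 30 M reads per library. The series also has 3 IgG libraries, which were not analysed here, and the antibody background was therefore not measured.

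JUNB is a leucine zipper protein that pairs with FOS family proteins to form AP-1, a transcription factor induced by growth factors, stress and wounding. AP-1 binds the DNA motif TGAGTCA, whose other strand reads TGACTCA, and in fibroblasts much of its binding is known to fall at enhancers, which can act on genes far away along the chromosome. The nearest gene is therefore a name for a place, not a known target.

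For a small number of these regions the RefSeq promoter table of GRCm38.p6 gives the DNA under the position, because a long noncoding RNA (lncRNA) starts there. Of the 2693 regions, 33 had their position inside such a 300-base window, which runs from 250 bases before a start to 50 after it. TGAGTCA or TGACTCA stood in 17 of the 33 windows (51.5%) and in 5 of the 12 whose regions all 4 libraries called (41.7%). The same letters stood in 1709 of 32851 promoter windows of the table (5.20%) and in 719 of 11588 lncRNA windows (6.20%). Gene-end regions whose position lay in a window held them in 51 of 316 (16.1%), and in 9 of the 32 that all 4 libraries called (28.1%). The 5 stretches below, from windows under regions called in all 4 libraries, show the motif in capitals; each is written 5′ to 3′ on the strand of its lncRNA. The last 2, also from regions called in all 4 libraries, have no AP-1 motif anywhere in their windows and stand for comparison.
Gm51550 start, chr8:109750773-109750881, + strand, 12.8 kb from Atxn1l: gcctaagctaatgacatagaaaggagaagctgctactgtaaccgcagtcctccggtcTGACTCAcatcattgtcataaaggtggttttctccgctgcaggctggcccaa
Gm39473 start, chr12:74825198-74825318, + strand, 72.1 kb from Kcnh5: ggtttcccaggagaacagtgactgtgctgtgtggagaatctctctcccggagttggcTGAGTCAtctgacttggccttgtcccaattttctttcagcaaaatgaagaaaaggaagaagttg
Gm36199 start, chr17:29434700-29434820, + strand, 55.1 kb from Fgd2: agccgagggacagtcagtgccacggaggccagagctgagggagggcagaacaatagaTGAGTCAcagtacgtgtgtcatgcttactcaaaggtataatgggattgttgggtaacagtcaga
5033406O09Rik start, chr12:111944641-111944732, - strand, 16.9 kb from Atp5mpl: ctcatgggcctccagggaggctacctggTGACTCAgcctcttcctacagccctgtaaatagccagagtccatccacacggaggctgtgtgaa
Gm41113 start, chr14:25379027-25379099, + strand, 78.7 kb from Zmiz1: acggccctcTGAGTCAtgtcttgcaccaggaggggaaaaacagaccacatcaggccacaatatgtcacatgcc
Gm11476 start, chr2:167553062-167553146, + strand, 10.3 kb from Snai1: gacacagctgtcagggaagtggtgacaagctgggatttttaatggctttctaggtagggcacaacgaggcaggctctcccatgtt
Gm32287 start, chr2:167777749-167777869, - strand, 87.4 kb from Cebpb: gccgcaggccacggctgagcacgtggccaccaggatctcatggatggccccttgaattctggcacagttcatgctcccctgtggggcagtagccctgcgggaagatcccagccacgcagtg

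Over the 17 windows with a motif, the nearest motif lay a median of 142 bp from the region's position, at most 215.5 bp away and within 50 bp in 2. In 14 of the 17 it lay inside the JUNB region. The CRE motif TGACGTCA, which AP-1 and ATF dimers also bind, stood in 0 of the 33 windows. It stood in 1.79% of all windows and in 0.975% of lncRNA windows, so a count of 0 in 33 says little. The TEAD motif GGAATG (or CATTCC on the other strand) stood in 8 of the 33 (24.2%), against 14.7% of all windows and 16.6% of lncRNA windows, and in 1 of the 12 whose regions all 4 libraries called (8.33%). These 33 windows are the few places where an annotated lncRNA start falls on a region, and the sequence of the other members was not used here. A match is a description of letters and not a measured site.

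The 4 libraries differed in how many peaks they listed. The siControl libraries held 1391 and 1296 distal intergenic regions, and the siChst7 libraries held 2199 and 1065. The siChst7 libraries were the highest and the lowest of the 4, so the groups overlapped. The mean number was 1343.5 ± 67.2 (SD, n = 2) for siControl and 1632 ± 802 (SD, n = 2) for siChst7, a log2 difference of 0.19 that did not pass the test (two-sided exact permutation over libraries, p = 1, smallest possible 0.333). As a share of each library's regions the class took 22.0% and 22.9% in siControl and 21.9% and 23.1% in siChst7. The difference of 0.04 percentage points between group means was below the spread between replicates (22.4 ± 0.661 against 22.5 ± 0.864, SD, n = 2 each, two-sided exact permutation p = 1).

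All 4 libraries called 676 of the 2693 regions (25.1%, 95% exact interval 23.5 to 26.8), against 22.0% of all 12655 regions. A further 359 (13.3%) stood in 3 lists, 512 (19.0%) in 2 and 1146 (42.6%) in 1. Over all regions these shares were 13.3%, 17.9% and 46.7%. Of the single-list regions 734 came from siChst7 replicate 1, the longest list, and 178, 155 and 79 from siControl replicates 1 and 2 and siChst7 replicate 2. Over all regions 29.2% stood in siChst7 replicate 1 alone, against 27.3% of the distal intergenic ones. The regions found in 2 lists mostly paired siChst7 replicate 1 with a siControl library, 176 times with replicate 1 and 146 times with replicate 2. These were 6.54% and 5.42% of the distal intergenic regions, and the same pairs made up 6.41% and 5.06% of all regions. The replicate pairs of one siRNA were rarer: 47 regions stood in both siControl lists alone and 119 in both siChst7 lists alone. Pairs of siChst7 replicate 2 with siControl replicates 1 and 2 were the rarest, at 16 and 8 regions. Of the 926 regions found in both siControl libraries 73.0% also stood in both siChst7 libraries, and of the 951 found in both siChst7 libraries 71.1% also stood in both siControl libraries. Over all regions these shares were close, at 70.6% and 69.4%.

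The authors' fold enrichment, the ratio of peak signal to local background that the peak caller gives, was higher for regions that more libraries called. The median of a region's mean fold was 5.39 for 1 list, 6.13 for 2, 6.96 for 3 and 9.14 for all 4. Within siControl the median fold of regions called in all 4 lists was 9.17 in replicate 1 and 8.57 in replicate 2, and within siChst7 it was 10.9 and 8.13. Regions that only 1 list held had medians of 5.34, 4.97, 5.59 and 5.05 in the same order. Peaks of the regions called in all 4 lists were also wider, with median widths of 638.5, 560, 798 and 540.5 bp, against 264, 236, 293 and 264 bp for single-list regions. A list holds only peaks past its threshold, so regions with weak peaks drop out of lists more easily. Wider peaks also meet the 1 bp overlap more easily. Both orders are therefore partly built into how lists and regions were made. The libraries placed their summits a median of 189.5 bp apart from the first to the last within a region called in all 4, and within 100 bp of each other in 207 of the 676 (30.6%). These values were 189 bp and 31.7% in deep gene bodies and 181 bp and 30.0% at gene ends. Beyond 100 kb they were 157 bp and 38.3%.

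Within each library, distal intergenic regions as a class stood above 4 other position classes in median fold rank, width and sharing. A library's folds were ranked from 0 to 100 over all its peaks. A region took the rank of its best peak by q. The median rank of distal intergenic regions was 56.0 and 55.1 in siControl and 54.3 and 54.6 in siChst7. The mean was 55.0 ± 0.731 (SD, n = 4 libraries), against 50.9 in deep gene bodies, 50.7 at 1 to 10 kb from a gene end, 46.7 beyond 100 kb and 44.4 at gene ends. All 4 libraries showed each of these differences, and the gap to deep gene bodies ranged from 3.46 to 4.51 rank points. The share of a library's regions that all 4 libraries called was 48.7% on average for distal intergenic regions, 45.2% in deep gene bodies, 46.0% at 1 to 10 kb, 45.5% beyond 100 kb and 35.8% at gene ends. Peak width was also higher for distal intergenic regions, 433 ± 28.7 bp (SD, n = 4 libraries) against 418.75 in deep gene bodies, 413.875 at 1 to 10 kb, 418.5 beyond 100 kb and 358 at gene ends. Each of the 12 comparisons gave p = 0.125 in a two-sided exact sign-flip permutation over 4 libraries (0.125 after Benjamini-Hochberg adjustment), which is the smallest p that 4 libraries can give, so none could pass the usual threshold. The lists share the regions they all called, so the 4 values for that measure are not independent. The order did not hold for every slice of distance: outside genes alone, the 1 to 10 kb band had a median rank of 54.6 in siChst7 replicate 2, equal to the distal intergenic value there, and the 50 to 100 kb band had 49.4 in that library.

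**Figure D1:**
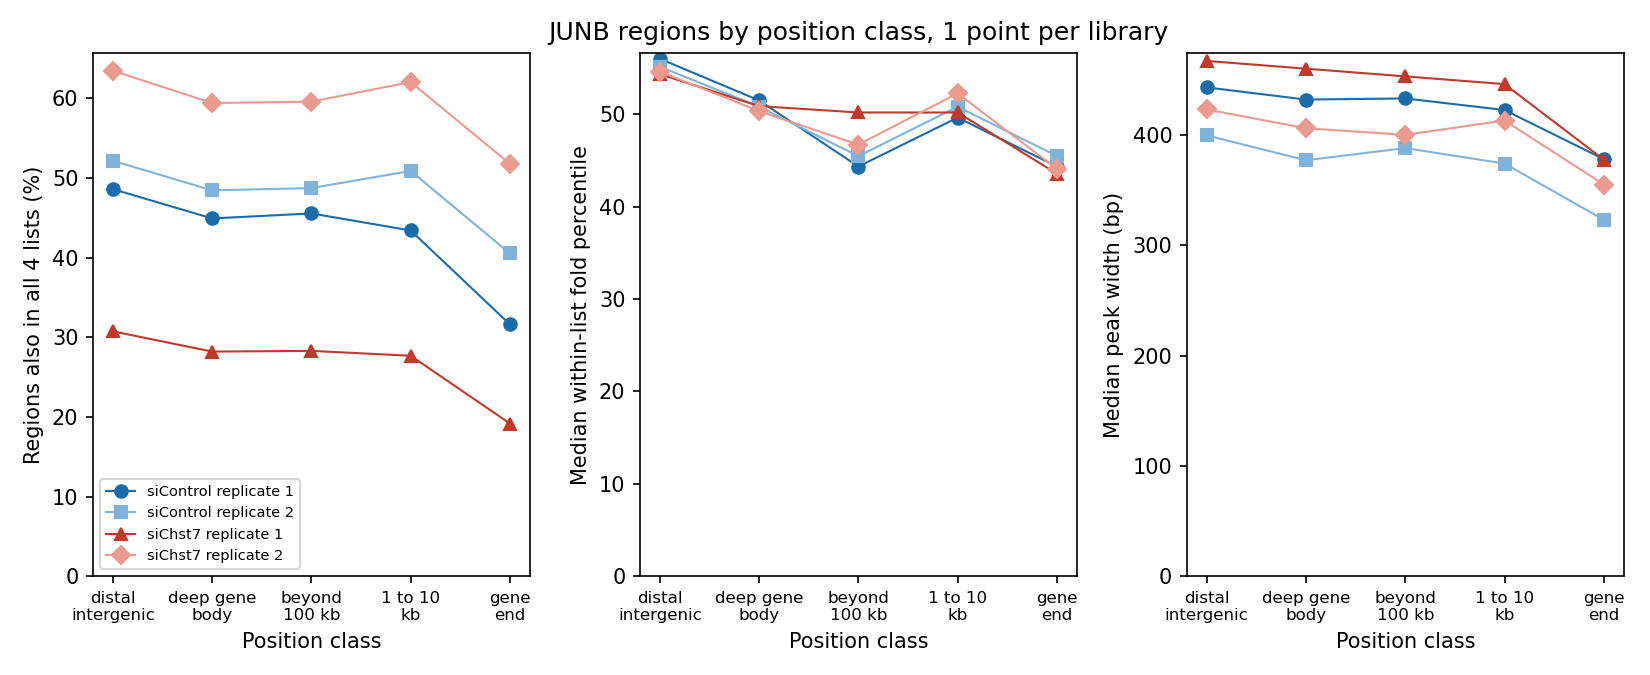
Share of regions called in all 4 lists (%), median fold rank within a library (0 to 100) and median peak width (bp) for 5 position classes, with 1 point per library and lines joining the points of a library. In all 3 panels each library's distal intergenic point lies above its own points for deep gene body, beyond 100 kb, 1 to 10 kb from a gene end and gene end.

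Outside genes, JUNB regions grew sparser with distance from the nearest gene end. Per Mb of sequence at that distance there were 21.0 regions within 1 kb, 6.22 from 1 to 10 kb, 5.25 from 10 to 20 kb, 4.72 from 20 to 50 kb, 3.34 from 50 to 100 kb and 1.28 beyond. Regions called in all 4 lists also fell over the distal intergenic bands, and numbered 1.34, 1.11 and 0.905 per Mb in the 3 bands. The share called in all 4 lists was 25.5%, 23.6% and 27.1% in those bands, and 17.2% within 1 kb. Assembly gaps and sequence to which reads cannot be mapped were not taken out of the lengths.

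**Figure D2:**
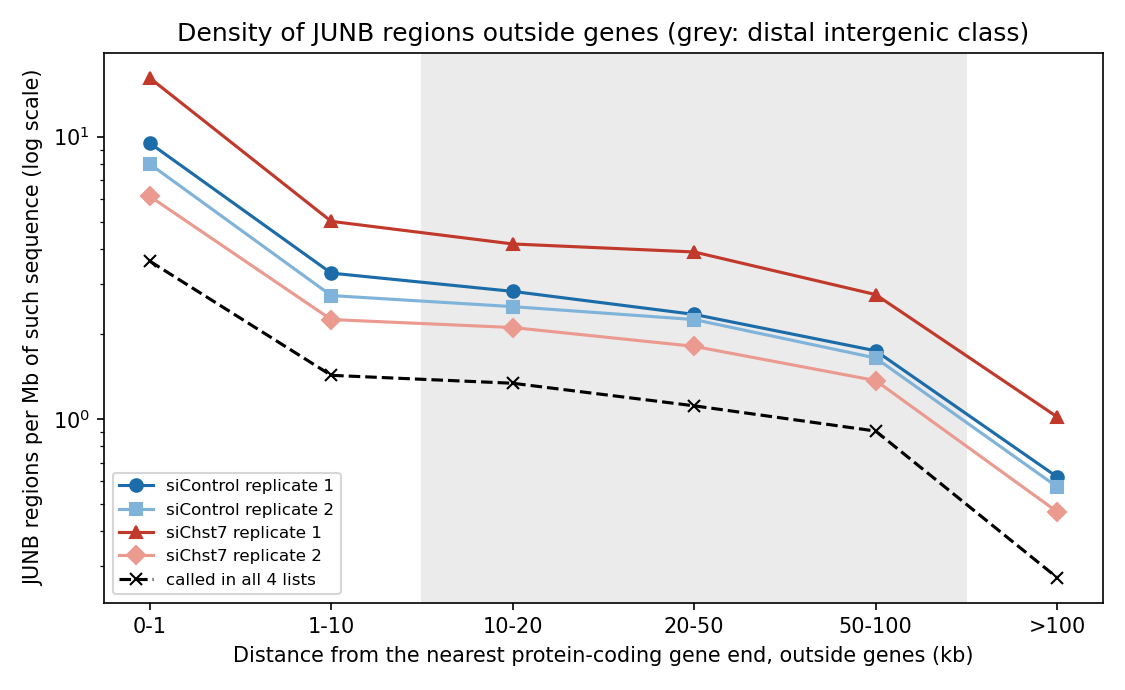
JUNB regions per Mb of sequence outside genes (log scale) by distance from the nearest protein-coding gene end (kb), with 1 line per library and a dashed line for regions called in all 4 lists; grey marks the distal intergenic bands. Over all libraries the density falls from 21.0 per Mb within 1 kb of a gene end to 1.28 per Mb beyond 100 kb.

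Where the strand of the nearest gene was known, 1208 regions (58.1%) lay off its 5′ end and 870 (41.9%) off its 3′ end, while 53.8% of the sequence in this distance range lay off a 5′ end. That is 4.65 regions per Mb on the 5′ side and 3.91 on the 3′ side. For regions called in all 4 lists the densities were 1.15 and 1.03 per Mb. Outside protein-coding genes, 578 of the 2693 positions (21.5%, 95% exact interval 19.9 to 23.1) lay inside an annotated lncRNA gene, which covers 12.6% of the 618 Mb in this distance range. Regions called in all 4 lists (21.9%) and in 1 list (20.8%) had close shares, as did regions beyond 100 kb (22.6%).

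The 12 best-ranked regions by the peak caller's q value, among those called in all 4 lists, carried folds of 17.4 to 63.3. The first lay 27.2 kb from Tmem230, at chr2:132211568-132212910, inside the lncRNA gene Gm14051. Second was a region 75.1 kb from Tpcn2, an ion channel of endosomes and lysosomes, on the side facing Ccnd1 (cyclin D1, which drives entry into the cell cycle) 166.7 kb away. It spanned chr7:145105795-145108380, and its fold was 45.1 and 41 in siControl and 57.1 and 35.3 in siChst7, so the siChst7 libraries gave the highest and the lowest value. Next in rank was a region between Gli3, a transcription factor of hedgehog signalling, 76.9 kb away, and Inhba, which encodes a subunit of activin, 197.3 kb away, at chr13:15806586-15807515. Its folds were 27.3 and 26.0 in siControl and 49.2 and 28.4 in siChst7. Both siChst7 values were above both siControl values there. But a fold is each list's own value, so this and the like orderings of libraries describe the lists and were not tested. The share of all regions called in all 4 lists that have such an ordering is not given here.

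The rest of these 12 stood near genes of varied roles. Near Errfi1, a feedback inhibitor of the EGF receptor, the region at chr4:150798686-150800460 (54.2 kb) had folds of 21.5 and 26.9 in siControl and 36.6 and 27.1 in siChst7. Near Lpcat1, an enzyme of phospholipid synthesis, the region at chr13:73429173-73430819 (37.2 kb) had folds of 29.0 and 29.2 in siControl and 37.5 and 26.5 in siChst7. Near Syk, a tyrosine kinase, the region at chr13:52658739-52659824 (10.6 kb) had folds of 28.3 and 25.5 in siControl and 31.0 and 26.8 in siChst7. The groups' ranges overlapped at Lpcat1 and Syk, and at Errfi1 the siChst7 values were the higher ones. A region at chr2:13555461-13557983 lay 12.7 kb from Trdmt1, an RNA methyltransferase, and 16.9 kb from Vim, the intermediate filament vimentin of mesenchymal cells. Its folds were 29.4 and 30.9 in siControl and 17.4 and 21.5 in siChst7, the siControl values being higher. Other members of the 12 lay near Phlda1, Nanos3, Lrrc74a, Itgb1 and Atp8b4, with folds between 18.3 and 35.9.

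**Figure D3:**
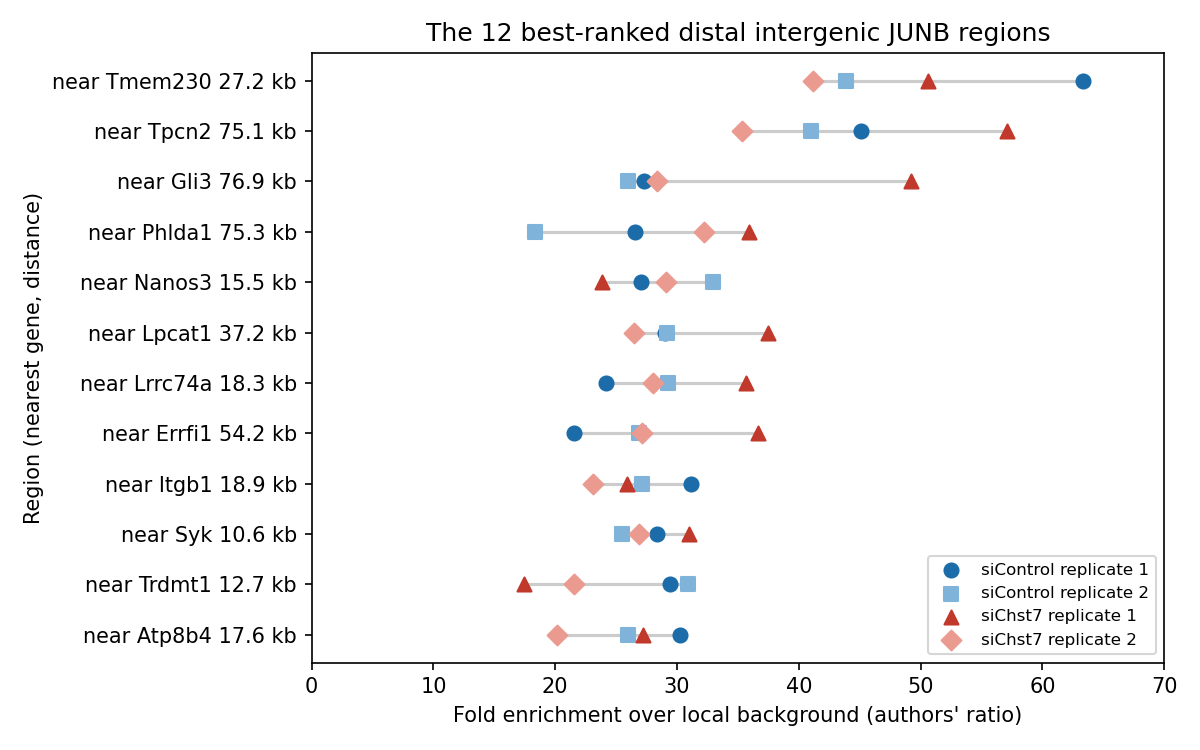
Fold enrichment (authors' ratio) of the 12 best-ranked distal intergenic JUNB regions in each of the 4 libraries, with 1 point per library. The values run from 17.4 to 63.3, and the region near Tmem230 has the highest value.

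High folds were not the rule: 117 of the 676 regions called in all 4 lists (17.3%) reached 10-fold in every list. At the other end, 1 region called in all 4 lists stayed under 3-fold in each, at chr13:74528717-74530482 near Zfp825, with folds of 1.49 to 2.26. The widest region called in all 4 lists ran 2958 bp at chr5:36722154-36725111, 24.5 kb from Bloc1s4, and the next ran 2925 bp near Arntl, a core gene of the circadian clock, 30.7 kb away. Just inside the 10 kb limit lay a region near Dhx37 at 10.01 kb, called in 2 lists with folds of 6.45 and 5.08, and one near Btg1, an inhibitor of cell proliferation, at 10.01 kb with folds of 11.9, 6.53, 8.27 and 5.37. Just outside it lay one near Krt18 at 9.98 kb, called in 2 lists with folds of 5.59 and 4.07, and one near Wdr70 at 9.96 kb with folds of 7.40, 12.6, 10.7 and 5.29. At the far limit, regions near Ncam1 (99.5 kb) and Mei4 (99.7 kb) were inside with 1 list each, and regions near Mei4 (100.5 kb) and Ralgapa2 (100.6 kb) were outside with 2 and 1.

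Most genes that were nearest to such a region had a single one. The 2693 regions were nearest to 1601 of 21900 protein-coding genes (7.31%), and the 676 called in all 4 lists were nearest to 541 (2.47%). Of the 541 genes 436 had 1 region called in all 4 lists, 80 had 2 and 25 had at least 3. For 433 of the 541 (80.0%) no region of another position class called in all 4 lists was assigned to the gene, 21 (3.88%) also had one at a gene end and 49 (9.06%) had one deep in the gene body. The same shares over all genes are not given here. For scale, all 4 libraries called 220 gene-end and 919 deep gene body regions, against 21900 protein-coding genes. Within 25 kb, 488 of the 676 regions (72.2%) had no other distal intergenic region called in all 4 lists, and 19 clusters of at least 3 held 60 of the 676. Counting regions of any class called in all 4 lists, 222 of the 676 (32.8%) had another within 25 kb. That share was close in the other classes, at 29.4% in deep gene bodies, 32.3% at gene ends and 30.0% beyond 100 kb.

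Irf2bp2, which encodes a corepressor that binds IRF2, had the most, 6 regions called in all 4 lists and spread over both of its flanks. On the side toward Tomm20, a receptor for proteins imported into mitochondria, the gap of 336.7 kb at chr8:126593987-126930663 held 17 distal intergenic regions. The 7 of them that all 4 libraries called were the most in any gap between genes. Going from Irf2bp2, 4 lay between 21.8 and 90.2 kb away, and their folds ran from 5.37 to 14.0. The other 3 lay 255.9, 258.6 and 273.7 kb along, nearest to Tomm20. The region at 255.9 kb, chr8:126849019-126850377, stood out with folds of 29.7 and 23.8 in siControl and 38.5 and 19.9 in siChst7. At the Irf2bp2 end itself a gene-end region was called in 3 lists with folds of 9.72, 7.05 and 7.12.

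**Figure D4:**
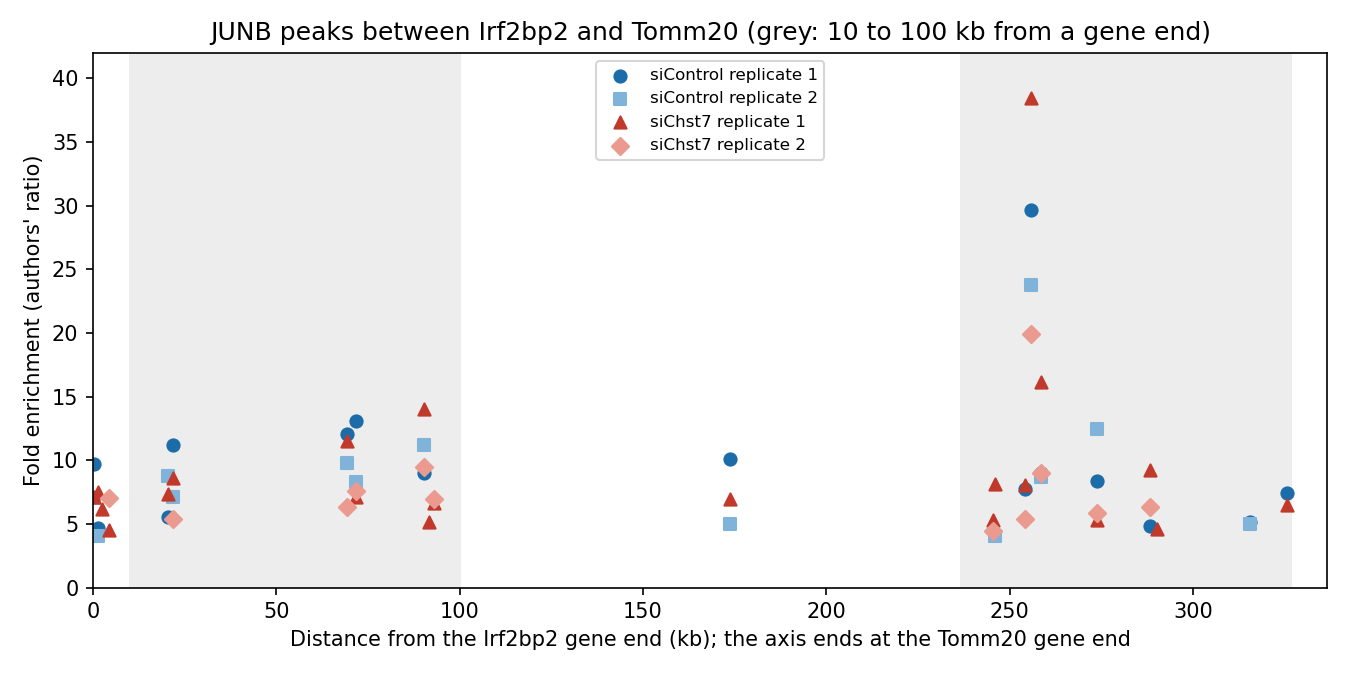
Fold enrichment (authors' ratio) of each JUNB peak between Irf2bp2 and Tomm20 against distance from the Irf2bp2 gene end (kb), with 1 point per library; grey marks sequence 10 to 100 kb from a gene end. Of the 17 distal intergenic regions in the gap, the one at 255.9 kb has the highest fold in every library, 19.9 to 38.5.

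Bach2 and Klf6 followed with 4 regions called in all 4 lists each. Bach2, a leucine zipper repressor that competes with AP-1 for related motifs, had them 37.2, 58.3, 63.4 and 68.4 kb from its 5′ end, within 31.1 kb. The one at chr4:32179707-32180447 (58.3 kb) was the highest, with folds of 14.8 and 14.9 in siControl and 17.3 and 12.6 in siChst7. The other 3 ranged from 5.56 to 11.7 over the 4 libraries. Klf6, a zinc finger factor of the early growth response, had them 16.0, 24.0, 35.2 and 57.8 kb away. At chr13:5803210-5804191 (57.8 kb) its folds were 12.3 and 14.0 in siControl and 21.6 and 9.13 in siChst7, the siChst7 values lying above and below both siControl values. A further 5 regions called in all 4 lists lay in the 116.8 kb between Socs5, an inhibitor of cytokine and EGF receptor signalling, and Mcfd2.

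Myc, the growth-promoting transcription factor, had 3 regions called in all 4 lists downstream of it. At chr15:62028144-62028966 (38.4 kb) the folds were 16.1 and 13.7 in siControl and 20.2 and 20.6 in siChst7. At chr15:62048481-62050070 (58.7 kb), inside the lncRNA gene Pvt1, they were 16.0 and 14.9 in siControl and 24.3 and 23.9 in siChst7. At chr15:62079000-62080193 (89.3 kb), also inside Pvt1, they were 27.1 and 26.1 in siControl and 32.3 and 20.2 in siChst7. The groups' values overlapped at the last of the 3 and not at the first 2. Sgk1, a kinase of the serum and glucocorticoid response, had 3 such regions 72.4, 80.4 and 91.7 kb away, and the one at chr10:21789763-21791402 was the highest with folds of 17.5 and 14.0 in siControl and 20.4 and 20.7 in siChst7. Cebpb, a leucine zipper factor of inflammation and fat cell development, had 3 at 71.0, 87.4 and 99.2 kb, the last with folds of 16.4 and 17.3 in siControl and 19.3 and 9.85 in siChst7.

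Gene lists were counted by the genes nearest to a region called in all 4 lists. Against 2.47% of all protein-coding genes, the share was 34.6% (9 of 26) for immediate-early and MAPK feedback genes, 31.6% (6 of 19) for the AP-1 family and 26.9% (7 of 26) for TGF-beta and myofibroblast genes. These lists also have more intergenic sequence to be nearest to: the median length of sequence 10 to 100 kb out next to a gene was 90.0 kb for the immediate-early list, 16.8 kb for the AP-1 family and 23.2 kb for the TGF-beta list, against 4.38 kb over all genes. Per Mb of that sequence there were 8.49, 13.5 and 7.34 regions called in all 4 lists, against 1.09 over all genes. Other lists were as high: endothelial markers had 33.3% of genes and 8.62 regions per Mb, epithelial markers 20% and 16.3, proteoglycan core proteins 25% and 8.74, and actin cytoskeleton and adhesion genes 20% and 9.58. Housekeeping genes, with 1 of 13 (7.69%) and 4.74 regions per Mb, were also above the values over all genes. The lists were drawn up with earlier results of these data known, so the counts are a description.

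Among AP-1 genes, Atf3, Bach2, Fosl2, Jdp2, Jun and Maf had such a region. Fosl2 encodes the FOS family protein FRA2, a partner of JUNB, and its region at chr5:32191767-32192709 (34.4 kb) had folds of 9.58 and 5.97 in siControl and 11.7 and 8.13 in siChst7. Jun encodes the founding AP-1 subunit, and both of its regions, 32.2 and 53.5 kb away, lay inside the lncRNA gene Junos with folds of 4.42 to 7.73. Maf encodes a large MAF leucine zipper factor, and its region at chr8:115770852-115771627 (64.6 kb) had folds of 5.42 and 6.58 in siControl and 6.04 and 4.99 in siChst7. Groups overlapped at Fosl2 and Maf, while at Jun the siChst7 values were the higher ones in the nearer region and the lower ones in the farther region. Junb itself and Fos were nearest to no distal intergenic region called in all 4 lists.

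The immediate-early list counted Areg, Dusp1, Dusp4, Dusp6, Hbegf, Ier5, Klf6, Myc and Phlda1. Dusp1, Dusp4 and Dusp6 encode phosphatases that switch off MAP kinases. The Dusp1 region at chr17:26529403-26531795 (22.0 kb) had folds of 28.3 and 16.8 in siControl and 21.9 and 15.0 in siChst7. The Dusp6 region at chr10:99241743-99242926 (20.8 kb) had folds of 11.3 and 4.97 in siControl and 15.6 and 9.84 in siChst7. The groups' values overlapped at both. Areg and Hbegf encode ligands of the EGF receptor, and their regions lay 93.5 and 11.8 kb away with folds of 4.22 to 11.3.

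Of the TGF-beta list, Ccn2, Itgb1, Smad3, Smad6, Tgfb2, Tgfbr3 and Tpm1 had such a region, and 4 of the list did with summit windows in place of whole peaks. Tgfb2, a ligand, had 2, and the one at chr1:186585766-186587709 (35.8 kb) had folds of 9.28 and 7.60 in siControl and 16.6 and 10.5 in siChst7. Smad6, which encodes an inhibitor of BMP and TGF-beta signalling, had one at chr9:64050187-64050957 (28.5 kb) with folds of 12.3 and 5.36 in siControl and 10.8 and 7.05 in siChst7. Smad3, the signal transducer, had one 81.4 kb away with folds of 5.59 to 6.61. The second Tgfb2 region, 40.7 kb away, had folds of 6.77 and 17.8 in siControl and 13.6 and 7.5 in siChst7. The siChst7 values were the higher ones at the first Tgfb2 region, and the groups overlapped at the second and at Smad6.

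The inflammatory list counted 6 of 24 genes (25%), namely the chemokines Ccl2, Cxcl1 and Cxcl12, the cytokine Lif, and the NF-kB inhibitors Nfkbia and Tnfaip3. The Tnfaip3 region at chr10:19045295-19046671 (31.0 kb) had folds of 14.2 and 12.2 in siControl and 18 and 15.5 in siChst7, and the Ccl2 region at chr11:82011487-82012369 (23.8 kb) had 9.66 and 6.83 against 19.0 and 7.13. Groups overlapped at Ccl2. Among proteoglycan core proteins, which carry chondroitin or heparan sulfate chains, 5 of 20 counted (25%): Cd44, Gpc1, Gpc3, Sdc2 and Tgfbr3. With summit windows in place of whole peaks 2 of them counted. The enzymes of chondroitin and heparan sulfate synthesis, the pathway of Chst7, counted 3 of 38 (7.89%), namely Chst1, Chst11 and Sulf1. The Chst11 region at chr10:82962064-82963170 (21.7 kb) had folds of 7.74 and 10.9 in siControl and 6.67 and 7.99 in siChst7. Chst7 was nearest to no such region.

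For the labelled cell type, the fibroblast list counted 5 of 34 genes (14.7%): Col1a1, Col5a1, Runx1, Snai1 and Thy1. Per Mb of adjoining sequence 10 to 100 kb out, that list had 2.68 regions called in all 4 lists. The region 19.7 kb from Col1a1, the main chain of type I collagen, at chr11:94916272-94916868 had folds of 11.9 and 8.84 in siControl and 10.4 and 7.57 in siChst7. The region 27.8 kb from Col5a1 had folds of 9.26 to 15.6. Marker lists of other cell types gave 4 of 12 endothelial genes (Erg, Flt1, Kdr and Vwf), 2 of 10 epithelial genes (Epcam and Krt18), 0 of 11 macrophage genes, 0 of 9 smooth muscle genes and 0 of 9 neuronal genes. Sequence 10 to 100 kb out next to these genes came to 0.696, 0.184, 0.249, 0.136 and 0.652 Mb in the same order. Over all genes there were 1.09 regions called in all 4 lists per Mb, so a count of 0 in so little sequence says little. Joining summit windows in place of whole peaks left 2 endothelial genes. Flt1, a VEGF receptor, had 3 regions, 60.8, 62.2 and 66.6 kb away, with folds of 4.4 to 16.6. The part of other cells in these counts was not tested, and a peak near a gene is no measure of its expression.

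Cardiac genes were counted because MGT was expressed. Among cardiac transcription factors 4 of 24 (16.7%) were nearest to a region called in all 4 lists: Gata4, Gata6, Mef2a and Myocd. With summit windows 2 of the 24 counted. Gata4, itself one of the MGT factors, had its region at chr14:63308208-63309602 (36.9 kb) with folds of 7.71 and 9.32 in siControl and 13.3 and 7.68 in siChst7. Gata6, its close relative, had one at chr18:11164285-11165771 (79.3 kb) with folds of 19.6 and 11.8 in siControl and 15.4 and 8.51 in siChst7. Groups overlapped at both. Genes for heart muscle structure and ion handling counted 3 of 31 (9.68%), namely the calcium store protein Casq2, the gap junction protein Gja1 and the potassium channel Kcnj2. Per Mb of adjoining sequence the transcription factors had 1.62 regions called in all 4 lists and the structural genes 3.90, against 1.09 over all genes.

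**Figure D5:**
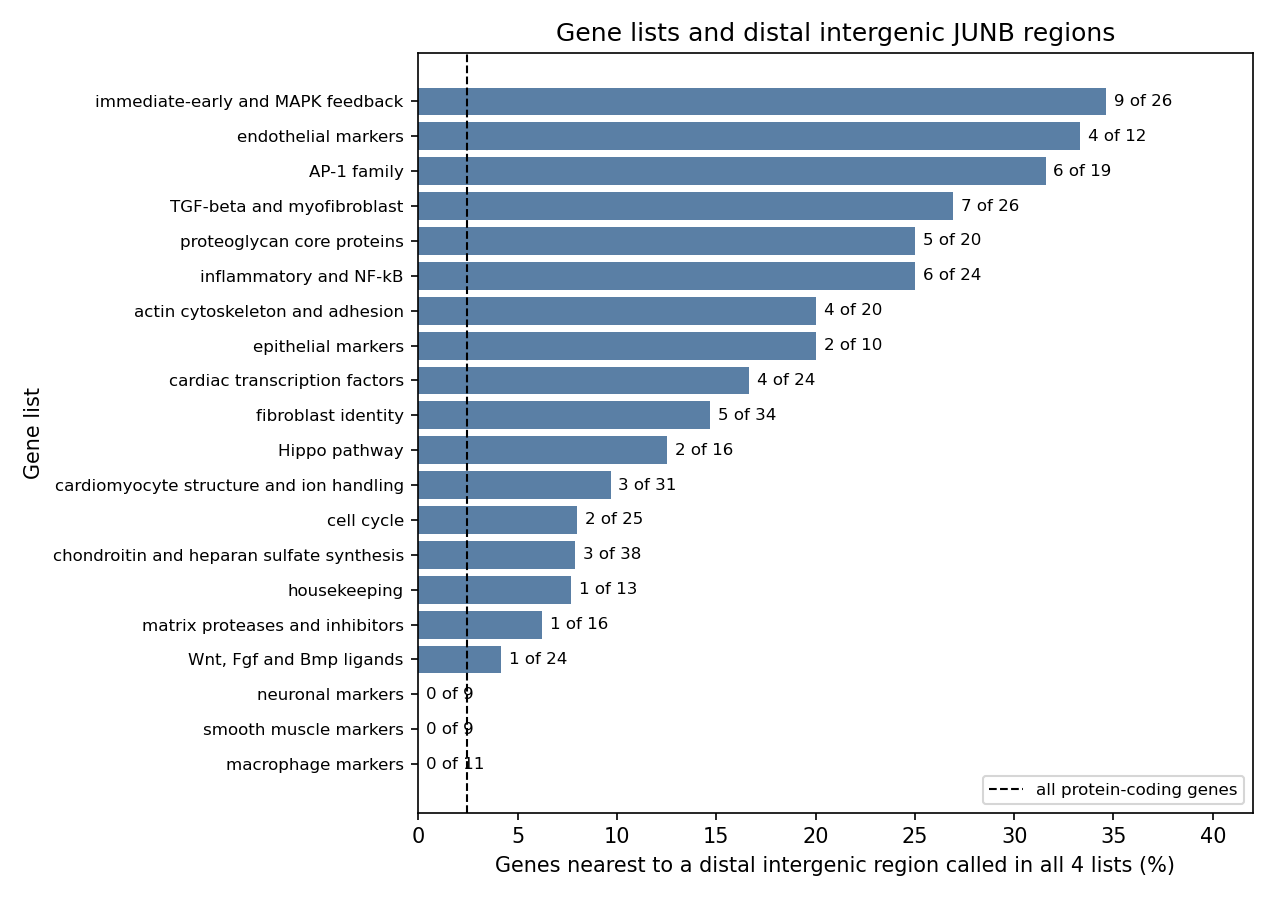
Share of genes in each of 20 lists that are nearest to a distal intergenic JUNB region called in all 4 lists (%), with a dashed line at 2.47% for all protein-coding genes. Immediate-early and MAPK feedback genes have 34.6% and the macrophage, smooth muscle and neuronal marker lists have 0.

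Between the siRNA groups, 47 distal intergenic regions (1.75%) were called in both siControl libraries and in neither siChst7 library, against 1.60% of all regions. In the opposite direction 119 (4.42%) were called in both siChst7 libraries and in neither siControl library, against 3.88% of all regions. Both shares were near the background. With all lists cut to the same length by rank, the counts were 67 siControl-only and 78 siChst7-only regions. Absence from a list means only that no peak passed its threshold, and read counts were not used here.

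The folds of group-only regions were near those of any region in 2 lists. The median of their mean fold was 6.03 for siControl-only and 6.07 for siChst7-only regions, beside 6.13 for all distal intergenic regions called in 2 lists. The best-ranked siControl-only region lay 27.9 kb from Meox1, a homeobox factor that is active in fibroblasts, at chr11:101849284-101849904 with folds of 9.19 and 8.84. Another at chr10:22915894-22916265, 95.8 kb from Tcf21, a factor of fibroblast progenitors, had folds of 9.37 and 5.34. One lay 23.2 kb from Tnfrsf11b, which encodes the decoy receptor osteoprotegerin, with folds of 7.09 and 7.46. The 47 regions had 47 different nearest genes, and 11 of these genes (23.4% of the regions) also had a region called in all 4 lists.

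The best-ranked siChst7-only region lay 97.2 kb from Rai14, which encodes an actin-binding protein, at chr15:10816276-10816933 with folds of 14.7 and 9.46. Next to Jun, 48.6 kb away and inside Junos, a siChst7-only region at chr4:95100596-95100895 had folds of 12.7 and 7.13, and a siControl-only region 13.5 kb from Jun had 6.44 and 6.83. Regions of both kinds therefore stood beside the same gene. Near Sema3e, a secreted guidance factor, a siChst7-only region 17.0 kb away had folds of 9.36 and 8.17. The 119 regions were nearest to 115 genes, with 2 regions each at Cxxc5, Sema3e, Sgk1 and Ywhaz, and 36 of the regions (30.3%) had a nearest gene that also had a region called in all 4 lists. That share over all distal intergenic regions is not given here, so 30.3%, and 23.4% for siControl-only regions, stand without a background. Of these regions 11 had a fold over 10 in siChst7 replicate 1 and 1 in siChst7 replicate 2. Inside lncRNA genes lay 21 of the 119 (17.6%) and 4 of the 47 (8.51%), against 578 of all 2693 distal intergenic regions (21.5%).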

How the data were processed

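JUNB CUT&RUN, in which a nuclease tethered to an antibody releases the DNA around a bound protein, was read from 4 peak lists, 1 per library. The submitters' processing notes name Bowtie2, an aligner, and MACS3, a peak caller, with the build mm10, and no version, role or setting; use of IgG as the calling control is likewise not given there. Peaks were listed per library, per the names in the file. The deposited lists give each peak a fold enrichment (a ratio), an integer display score, a p-value and a q-value as −log10, and a summit offset, all the authors' values; the lowest −log10 q was 2.00. Folds and q were used to describe and rank peaks within a list. The files hold no read counts, so depth is unknown, and intervals (95%, exact Clopper-Pearson) cover counting error only.

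Regions were placed against RefSeq genes of GRCm38.p6; strand, known for 17492 of 21900 genes, and sequences came from its promoter table (32851 windows of 300 bases). No genome sequence was used, so the planned motif search in all members was replaced by these windows; 3683 of 3683 overlapping pairs of windows matched in sequence. All 407 entries of the 20 gene lists matched. The members and lists were chosen with earlier results of these data known. Named regions followed a rule: the 12 best by q and by fold among those called in all lists, the 8 best of each group-only class, up to 4 per gene list, genes with the most regions, the 5 widest, those beside the distance limits and clusters of at least 3 within 25 kb. A few others named beside them were chosen after their values were seen. Library values were compared by two-sided exact permutation, and position classes by exact sign-flip within libraries with Benjamini-Hochberg adjustment over 12 tests. The joining and placing of peaks was tested on simulated lists. The alternatives were merging at 50% reciprocal overlap, merging summit windows of 100 bp to either side, a fold of at least 5, a q of at most 0.001, equal list length, other distance limits, a replicate block and leaving out each library. Equal list length, summit windows and leaving out libraries were added for gene lists after seeing the data. Software was Python 3.11.15, NumPy 2.4.6, pandas 2.3.3, SciPy 1.17.1 and Matplotlib 3.10.9.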

Additional observations from a re-analysis of the deposited data

How the results depend on the processing

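Joining summits with 100 bp on each side, in place of whole peaks, lowered the number of distal intergenic regions called in all 4 lists from 676 to 445 and raised the siControl-only number from 47 to 76. Cutting all lists to equal length lowered the siChst7-only number from 119 to 78. Leaving out 1 library gave 681 to 868 regions called in all remaining lists, 59 to 241 siControl-only and 182 to 857 siChst7-only regions, since fewer lists then have to hold or lack a region. The difference in share between siRNA groups changed sign, from 0.04 to -0.12 percentage points, with limits of 5 and 200 kb, and ran from -0.57 without siChst7 replicate 2 to 0.63 when a library was left out, with -0.43 without siControl replicate 1. The log2 difference in number ran from -0.33 without siChst7 replicate 1 to 0.71. Titles number the replicates without stating a pairing across groups. Replicate 1 minus replicate 2 differences in calls had a correlation of -0.02 between groups over 2693 regions. These regions were all called in at least 1 list, which shapes that value, so it cannot decide whether the libraries are paired. A replicate block gave the same differences of 0.19 and 0.04 (exact sign-flip p = 1).

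As a mean over libraries, distal intergenic regions stayed above deep gene bodies in all 3 measures under each alternative. The gap in the share called in all lists was 1.54 (summit windows) to 4.08 percentage points. It was 2.59 to 4.66 points in fold rank and 9.5 to 18 bp in width. When a library was left out, the 3 gaps were 2.52 to 3.68, 3.83 to 4.12 and 11.8 to 15.8. Not every library showed the difference throughout. With equal list length, fold rank and width each gave p = 0.25 (exact sign-flip over 4 libraries), and so did width at a fold of at least 5. Differences of 1 direction in all 4 libraries would give 0.125. Gene list counts ran from 7 to 12 for immediate-early, 4 to 7 for AP-1 and 4 to 8 for TGF-beta genes; summit windows lowered proteoglycan core proteins from 5 to 2, cardiac transcription factors from 4 to 2 and endothelial markers from 4 to 2.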

Other observations

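The folds came in steps. Of the distal intergenic regions in a list, 79.9% and 79.5% (siControl replicates 1 and 2) and 81.9% and 78.2% (siChst7 replicates 1 and 2) had a fold that another distal intergenic region of the same list shared to every deposited digit. In siControl replicate 2 the value 6.83 stood at 52 of 1296 regions, among them those near Jun (53.5 kb), Casq2 and Mef2a, and 21 of the 52 were called in all 4 lists. The most frequent values of the other lists were 6.44, 5.19 and 5.05.

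Over the 676 regions called in all 4 lists, the order of the folds was more alike between replicates of a group than between groups. Spearman's rho was 0.670 between the siControl libraries and 0.662 between the siChst7 libraries, and 0.570 to 0.605 over the 4 pairs across groups. In deep gene bodies, over 919 regions, it was 0.635 and 0.605 within groups and 0.497 to 0.588 across. Beyond 100 kb it was 0.708 and 0.717 within and 0.601 to 0.669 across. At gene ends the pattern did not hold, with 0.609 within siControl, 0.488 within siChst7 and 0.459 to 0.571 across. Nor did it hold for sharing of the 68 or 69 highest-fold distal intergenic regions of a list. There siControl replicate 2 and siChst7 replicate 2 shared 64.7%, against 63.8% within siControl and 63.2% within siChst7. Other pairs across groups shared 55.1% to 59.4%. The rho values are correlations across regions of shared libraries, and they and the shares are given as a description. A batch that follows the siRNA cannot be told apart from it here.

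Genes of the actin cytoskeleton and of adhesion were nearest to a region called in all 4 lists in 4 of 20 cases (20.0%), namely Actb, Capn2, Lpp and Ptk2. Capn2, which encodes a calpain protease of adhesion turnover, had one 10.7 kb away at chr1:182527788-182528824 with folds of 30.8 and 33.6 in siControl and 24.1 and 15.1 in siChst7. Ptk2, the focal adhesion kinase, had one 11.4 kb away at chr15:73434669-73435569 with folds of 12.2 and 12.6 in siControl and 19.6 and 17.0 in siChst7. The groups did not overlap at either, and the direction was opposite. Such orderings were not tested, and their share over all regions called in all 4 lists is not given here.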
